A study of Schizosaccharomyces pombe with 6 samples.

Results

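Small RNA peaks were examined on the 9 genes of the fission yeast (Schizosaccharomyces pombe) RNAi machinery other than the Dicer gene: ago1, chp1, tas3, arb1, arb2, rdp1, hrr1, cid12 and eri1. A peak is a stretch of the genome where the authors' peak caller found small RNA reads piled up, and it was counted for a gene if it overlapped the annotated gene by at least 1 bp. Of the 11033 peaks in the deposited list, 17 met this rule. They fell on 5 genes: 5 each on hrr1 and eri1, 4 on cid12, 2 on rdp1 and 1 on ago1. No peak was listed on chp1, tas3, arb1 or arb2.

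The 6 libraries came from cells grown in rich YES medium, with RNA of 18 to 28 nt cut from a gel. They were 1 library labelled dcr delta (strain spb309, 30 °C), 1 library each of wild-type strain spb75 at 8 hours and 7 days of 37 °C, 2 libraries of spb75 at 30 °C and 1 of wild-type strain spb80 at 30 °C. No label names a further allele or treatment, and none states that libraries are separate cultures, so p-values measure only the spread between these samples. In cells sequenced in bulk, less RNA in every cell and the same RNA in fewer cells cannot be told apart.

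Reads over all peaks ranged from 5790804 to 15723318 per library. Reads over dcr1, the Dicer gene, numbered 246 in the library labelled dcr delta, against 81 in spb80 and 74 and 58 in spb75 at 30 °C. Over the peaks on its coding span the log2 ratio of that library over wild type was 2.05 (limma, adjusted p = 0.176). The extent of the deletion is not given in the labels, so the reads over dcr1 do not bear the label out and cannot refute it. Falls at other peaks of this library are given below. Directions below are those of the library labelled dcr delta.

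In fission yeast, siRNAs cut by Dicer are loaded onto the Argonaute protein Ago1 and guide silencing of the repeats around centromeres. Ago1 works in the RITS complex with the chromodomain protein Chp1 and the bridging protein Tas3, and in the ARC complex with Arb1 and Arb2, where it holds duplex siRNA before RITS forms. The RDRC complex, made of the RNA-dependent RNA polymerase Rdp1, the helicase Hrr1 and the nucleotidyltransferase Cid12, makes the double-stranded RNA on which Dicer acts. Eri1 is a nuclease that degrades siRNA and restrains the pathway. Most RNAi genes of this yeast are known to lie in convergent pairs, in which neighbouring genes are transcribed towards each other.

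The 17 peaks were short, 30 to 107 bp wide with a median of 46 bp, against 51 bp for all peaks. Their median G and C content was 36.8%, against 38.6% for all peaks. Peaks inside coding exons and introns are shown here where no other coding gene overlaps them. They lie within the bounds of the RNAi gene, but the strand of the reads is not known. The gene's own transcript is therefore not shown to be their source. Of the fourth eri1 peak, the only member called in any comparison, the coding bases are given too. The sequences are those of RefSeq assembly ASM294v3, plus strand, which is the strand of all 5 genes. Capitals mark coding bases and lower case marks intron.

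ago1 peak 1, III:336913-336950: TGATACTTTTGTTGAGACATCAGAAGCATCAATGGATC
rdp1 peak 1, I:1328749-1328816: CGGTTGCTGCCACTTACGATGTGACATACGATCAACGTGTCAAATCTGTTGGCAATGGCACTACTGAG
hrr1 peak 1, III:2032705-2032771: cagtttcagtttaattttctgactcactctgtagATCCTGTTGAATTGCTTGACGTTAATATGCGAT
eri1 peak 2, II:1320768-1320806: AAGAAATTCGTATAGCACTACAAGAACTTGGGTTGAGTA
eri1 peak 3, II:1320850-1320881: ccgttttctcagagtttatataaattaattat
eri1 peak 4, coding part, II:1321066-1321084: ACGATACTTGCTAATTGTG

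The build behind the deposited coordinates was not named in the sources used here. On ASM294v3, peaks over tRNA, snoRNA and snRNA genes were centred within 9.5 bp of the genes' centres, as the median of each of 14 bins of 1 Mb. In the bins that hold the 5 genes the medians were within 4.5 bp. Single bases at the ends of these sequences are therefore not certain.

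The genes lie at these positions of ASM294v3. Of the RITS genes, ago1 (SPCC736.11) spans III:334079-337070 and faces mmi1 across a gap of 17 bp, chp1 (SPAC18G6.02C) spans I:2210810-2214345 on the minus strand, and tas3 (SPBC83.03C) spans II:1514006-1516179, also on the minus strand. Of the ARC genes, arb1 (SPAC140.03) spans I:1899966-1901605 and arb2 (SPAC13G7.07) I:2308983-2310294. Of the RDRC genes, rdp1 (SPAC6F12.09) spans I:1324941-1329061 and faces ade3 across 29 bp, hrr1 (SPCC1739.03) spans III:2029460-2034205, and cid12 (SPCC663.12) spans III:1655646-1660080. The nuclease gene eri1 (SPBC30B4.08) spans II:1320720-1323215.

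Where the peaks lay differed from gene to gene. On rdp1 and ago1 they sat near the far end of the transcript, with centres 278.5 and 58.5 bp before the annotated end of rdp1 and 138.5 bp before that of ago1. On eri1 the 5 peaks all lay near the start. Peak 1 covered the 5′ untranslated region (UTR) and the start codon, peak 2 lay in the first coding exon and peak 3 wholly inside the first intron of 77 bp. Peak 4 covered the end of the second intron and the start of the next coding exon, which also holds peak 5. On hrr1, peak 1 covered the end of the last intron and the start of the last coding exon, and the other 4 lay in the long annotated 3′ UTR. On cid12 no peak touched the coding sequence, and all 4 lay in its annotated 3′ UTR or across its end. Peaks covered 6.81% of the length of hrr1, 6.53% of eri1, 3.74% of rdp1, 3.47% of cid12 and 1.27% of ago1.

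**Figure D1:**
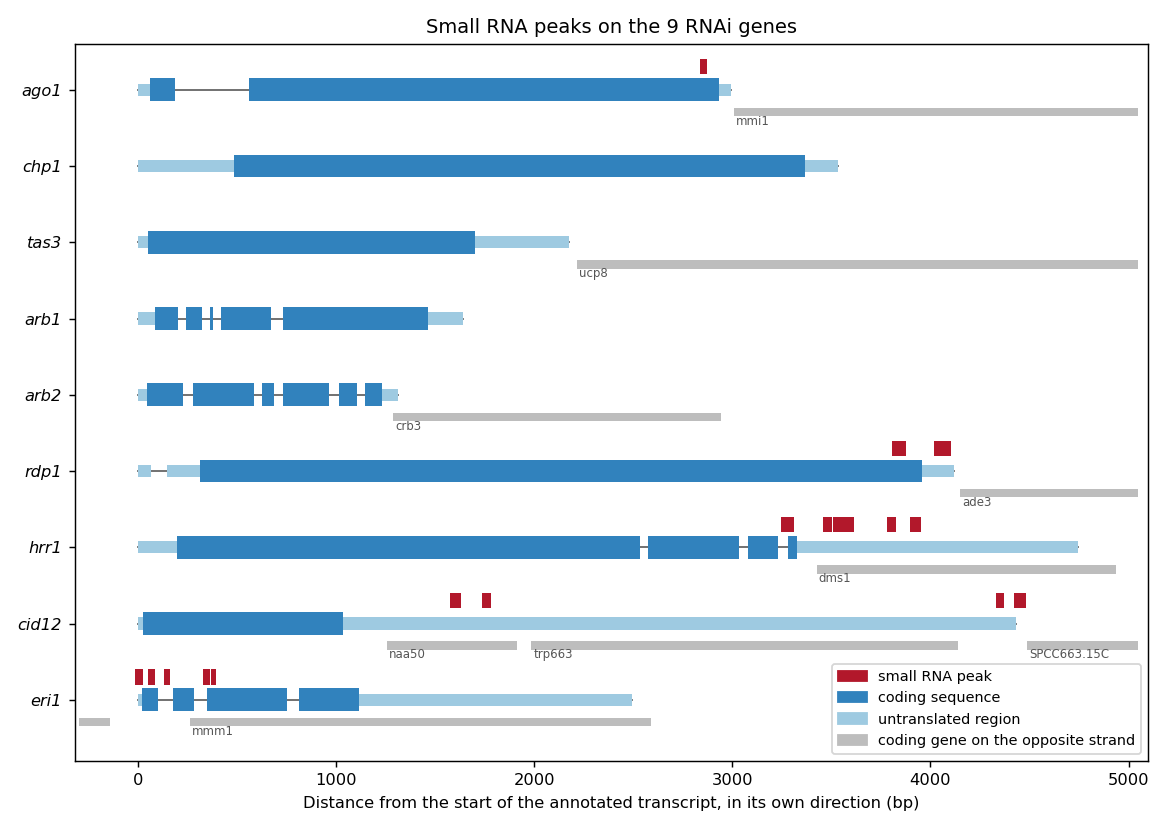
Small RNA peaks (red) on the 9 genes, drawn in bp from the start of each annotated transcript, with coding sequence in dark blue, UTRs in light blue, introns as thin lines and coding genes on the opposite strand in grey; genes that follow on the same strand are not drawn. The 4 genes without a peak are chp1, tas3, arb1 and arb2, and 8 of the 17 peaks lie over a coding gene of the opposite strand.

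Much of this signal cannot be given to the RNAi gene alone. The deposited list does not tell the strands apart, and 9 of the 17 peaks also overlapped another annotated gene, on the opposite strand each time. Peaks 2 to 5 of hrr1 lay over dms1, peaks 1 and 2 of cid12 over naa50, an N-acetyltransferase subunit gene, and peaks 4 and 5 of eri1 over the 3′ UTR of mmm1, a gene for a mitochondria-ER tether. The ago1 peak touched the 5′ start of the lncRNA SPNCRNA.6801, which lies on the minus strand. On no other gene were both rdp1 peaks, hrr1 peak 1, cid12 peaks 3 and 4 and eri1 peaks 1 to 3. Among all peaks on coding genes, 54.6% overlapped 2 or more genes.

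The 5 genes with a peak all had a convergent coding neighbour downstream, as did tas3 (facing ucp8) and arb2 (facing crb3) without a peak. In contrast, chp1 and arb1 were followed by a gene on their own strand. Thus 5 of 7 convergent members and 0 of 2 others held a peak. In the genome as a whole 54.7% of coding genes had a convergent neighbour downstream, and a peak was listed on 80.8% of these and on 54.3% of genes in tandem. Among coding genes of the lengths spanned by the 9 members, 72.0% held a peak. The nearest peaks outside the 4 genes without one lay 54 bp from arb1, 55 bp from chp1, 140 bp from arb2 and 253 bp from tas3. A gene without a peak can still hold reads below the caller's threshold, so its level is not known here.

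The members' small RNAs were scarce. Levels are given as normalised reads, the reads recovered from the deposited signal and divided by a library scale factor. Averaged over the 6 libraries, the 17 peaks held 3.22 to 46.4 normalised reads with a median of 17.1, against 29.9 for all peaks, and 14 of the 17 lay below that median. Together they held 336 normalised reads in the library labelled dcr delta, 385 after 8 hours and 354 after 7 days at 37 °C, against 334 and 288 in spb75 at 30 °C and 251 in spb80. As a share of reads over all peaks this was 42.4 in every 1000000 reads in the library labelled dcr delta (95% Wilson interval 37.8 to 47.4), 24.3 after 8 hours (21.8 to 27.2) and 34.2 after 7 days (30.1 to 38.8). In wild type at 30 °C it was 35.0 (32.2 to 38.0) and 50.4 (45.0 to 56.5) in spb75 and 27.5 (24.5 to 30.7) in spb80. The 2 libraries of spb75 at 30 °C thus differed from each other beyond counting error on this scale, and on either scale the library labelled dcr delta lay close to or within the wild-type range.

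Levels of different genes were compared per kb of gene. In wild type at 30 °C (mean ± SD, n = 3), the summed level was 25.8 ± 7.89 normalised reads per kb for eri1, 20.6 ± 1.67 for cid12, 19.3 ± 5.09 for hrr1, 9.66 ± 2.24 for rdp1 and 1.26 ± 1.12 for ago1. The ranges of eri1, cid12 and hrr1 overlapped one another, while the highest rdp1 value, 12.2, lay under the lowest hrr1 value, 13.5, and ago1 lay below the other 4 in each library. By mean level per kb over the 6 libraries, eri1 stood above 43.1%, cid12 above 34.9%, hrr1 above 32.3%, rdp1 above 22.7% and ago1 above 0.512% of the coding genes that held a peak.

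**Figure D2:**
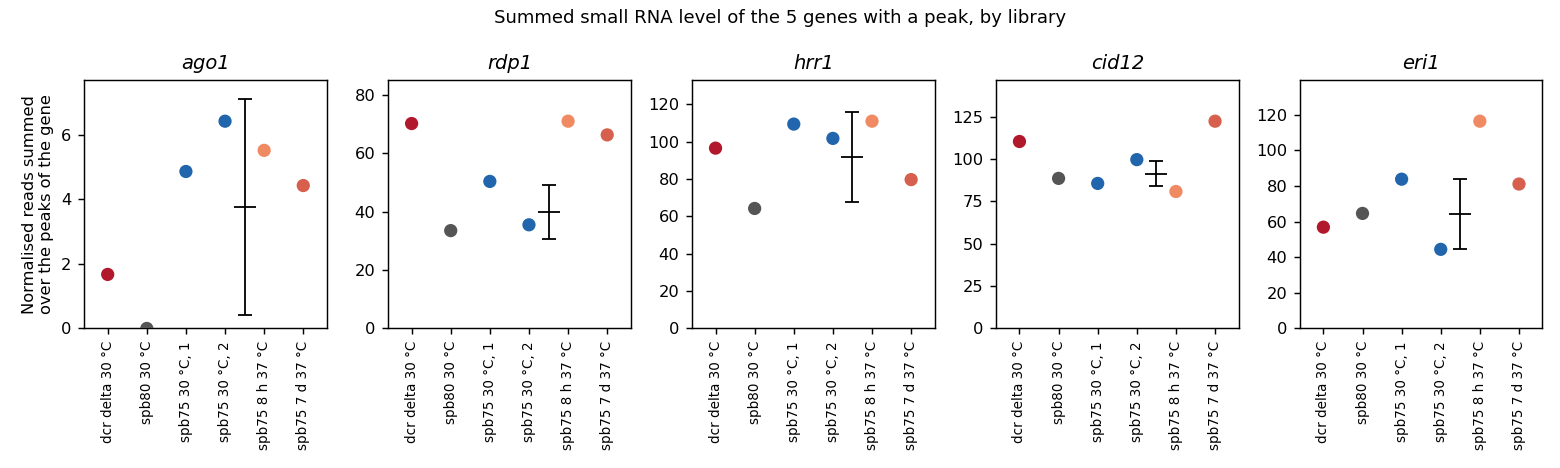
Normalised reads summed over the peaks of each of the 5 genes (vertical axes, starting at 0 and scaled per gene) in each of the 6 libraries (points); the cross is the mean ± SD of the 3 wild-type libraries at 30 °C. On rdp1, with the scale factors used, the library labelled dcr delta and both libraries at 37 °C lie above the 3 wild-type libraries at 30 °C, while on hrr1 and eri1 the library labelled dcr delta lies among them. How many of all genes show the rdp1 order was not counted.

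The library labelled dcr delta was set against the 3 wild-type libraries at 30 °C, to ask which small RNAs over these genes depend on Dicer. No peak of the 9 genes was called lower or higher, and neither was any gene on summed reads. By limma on log2 of normalised signal plus 1, 0 of the 8 member peaks that passed the filter on low values were called at an adjusted p of 0.05, with 0 at an unadjusted p under 0.05; over all peaks 0.894% were called. On summed reads 0 of the 4 genes tested were called, with 0 at an unadjusted p under 0.05, against 1.85% of all genes called. Of all features tested, 515 of 8274 peaks and 330 of 4428 genes had an unadjusted p under 0.05. Over all 17 peaks, filter set aside, the median log2 ratio was 0.32, with 10 above 0 and 7 below. Over all 11033 peaks the median was 0.03, with 52.32% above 0.

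The absence of a call covers a limited range. The lowest bound of any 95% interval among the 8 tested peaks was -2.70, at hrr1 peak 4, whereas the 72 peaks called lower in this comparison had log2 ratios from -8.37 to -4.83. A loss of that size lay outside the interval of every tested member peak, but low levels fixed this in advance at some of them. With 1 added before the log, the wild-type level limits how low a ratio can go at 0 reads. At least at rdp1 peak 2, hrr1 peak 1 and eri1 peak 4, with wild-type means of 22.7, 22.1 and 25.6, that limit lies above -4.83. For these peaks the comparison with the 72 peaks decides nothing. Smaller changes, and rises up to the highest bound of 2.13 at hrr1 peak 1, lay within the intervals.

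Among RITS and ARC genes, only the ago1 peak could be followed. It held 1.5 reads in the library labelled dcr delta, 0 in spb80 and 8 and 6.5 in the 2 spb75 libraries at 30 °C; a fraction of a read can arise where a read matched several places. It held 4.5 reads after 8 hours and 3 after 7 days at 37 °C. At 0 of 11037742 reads, a share of up to 0.272 in every 1000000 reads is allowed in spb80, a limit that covers counting error only. The peak did not pass the filter, so no difference between libraries was tested at it.

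Of the RDRC genes, rdp1 showed the same arrangement at both of its peaks. Peak 2, in the 3′ UTR before the convergent gene ade3, held 41.5 reads in the library labelled dcr delta, 42 and 30 after 8 hours and 7 days at 37 °C, 58 and 27 in spb75 at 30 °C and 25 in spb80. Normalised, this was 46.3 reads in the library labelled dcr delta and 51.5 and 44.2 at 37 °C, against 35.2 and 26.7 in spb75 at 30 °C and 20.7 in spb80. On this scale the dcr delta library and, separately, each 37 °C library lay above all 3 wild-type libraries at 30 °C. The share of all peaks with this order was not counted. The place of the 8 hour library depends on the scale factors. With total reads the summed rdp1 log2 ratio of 8 hours over 30 °C was -0.34, against 0.73 on this scale.

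The order was the same at rdp1 peak 1 on this scale, and again its share among all peaks was not counted. That peak held 24.0 normalised reads in the library labelled dcr delta and 19.6 and 22.1 at 37 °C. The wild-type values at 30 °C were 15.2 and 8.88 in spb75 and 12.8 in spb80. Summed over both peaks, the log2 ratio of dcr delta over wild type was 0.83 (SE 0.44, limma, adjusted p = 0.696), so this difference did not pass. The 95% interval was -0.22 to 1.88.

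On hrr1 the peaks lay on both sides of 0 in the library labelled dcr delta. Peak 4, the highest, lies over the coding span of dms1 and the 3′ UTR of hrr1 (III:2033241-2033286) and held 12 reads in the library labelled dcr delta, 25.5 after 8 hours and 14 after 7 days at 37 °C, 69 and 43 in spb75 at 30 °C and 16 in spb80. Normalised, dcr delta and spb80 were level at 13.4 and 13.3 reads, below 41.9 and 42.4 in the spb75 libraries. The single spb80 library thus stood further from the spb75 libraries than from the library labelled dcr delta. The deposited columns of spb80 and dcr delta carry an added constant of 8, which the spb75 columns lack. Strain cannot be told apart from this difference between the columns. The log2 ratio of dcr delta over wild type was -1.07 (SE 0.72, limma, adjusted p = 0.865).

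Peak 1, the only hrr1 peak on no other gene, held 36.8 normalised reads in the library labelled dcr delta, against 25.5 and 18.8 in spb75 and 18.2 in spb80. That library lay above all 3, with a log2 ratio of 0.81 (SE 0.58, limma, adjusted p = 0.867), and did not pass. How many of all peaks place that library above every wild-type library was not counted. Summed, hrr1 held 96.5 normalised reads in the library labelled dcr delta against 91.7 ± 24.2 in wild type (SD, n = 3), a log2 ratio of 0.11 (SE 0.41).

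On cid12 the highest peak, peak 4 (III:1660069-1660126), has 46 of its 58 bp beyond the annotated end of the gene, in the gap before the convergent gene SPCC663.15C. It held 53 reads in the library labelled dcr delta, 41 after 8 hours and 46 after 7 days at 37 °C, 44 and 38 in spb75 at 30 °C and 45 in spb80. Normalised, it held 59.1 reads in the library labelled dcr delta against 26.7 and 37.5 in spb75 and 37.3 in spb80. How many of all peaks place the library labelled dcr delta above every wild-type library was not counted. That library lay above all 3, with a log2 ratio of 0.81 (SE 0.50, limma, adjusted p = 0.851), and did not pass.

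Over naa50, cid12 peak 1 held 17.8 normalised reads in the library labelled dcr delta, against 9.72 to 16.8 in wild type, and peak 2 held 30.1 against 34.8 to 46.8. These peaks lay on opposite sides of the wild-type range. Summed, cid12 had a log2 ratio of 0.27 (SE 0.32, limma, adjusted p = 0.858), or -0.16 when only peaks at least 50% inside the gene were kept, which leaves out peak 4, and 0.79 on the peaks that overlap no other gene, which leaves out those over naa50.

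For eri1, the siRNA nuclease gene, the library labelled dcr delta had 56.9 normalised reads over all 5 peaks, against 64.3 ± 19.7 in wild type (SD, n = 3). The log2 ratio was -0.13 (SE 0.46, limma, adjusted p = 0.958). Its intron peak, peak 3, held 10 reads in the library labelled dcr delta, against 46 and 8 in spb75 at 30 °C and 8 in spb80. The first spb75 library stood apart from the other 3 there, and the log2 ratio was -0.034 (SE 0.83). Peak 1, at the start codon, held 12 reads in the library labelled dcr delta against 55 and 12 in spb75 and 23 in spb80, so the same spb75 library was highest there too.

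**Figure D3:**
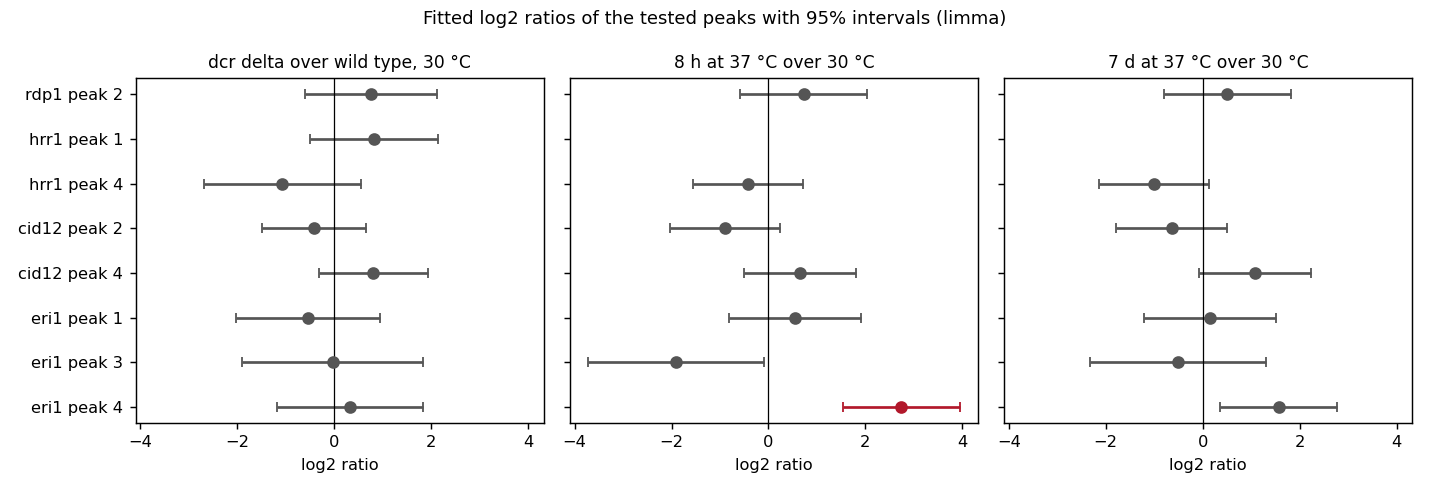
Fitted log2 ratios (points) with 95% intervals (bars) of the member peaks that passed the filter, for dcr delta over wild type at 30 °C and for 8 hours and 7 days at 37 °C over 30 °C; red marks an adjusted p under 0.05. All intervals in the dcr delta panel include 0, and eri1 peak 4 at 8 hours is the single red point, at 2.74, a peak that passed the filter only through the libraries at 37 °C.

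How small RNAs over the same genes behaved in heat was asked within strain spb75. After 8 hours at 37 °C the only member called was eri1 peak 4, which was higher. It passed the filter on low values only through the libraries at 37 °C, where it was high, and without the filter no member peak was called. By limma 1 of the 7 member peaks tested was called, against 1.23% of all peaks called in either direction and 1.0% called higher. An unadjusted p under 0.05 was found at 2 of the 7, against 1303 of all 8274 peaks tested. On summed reads 0 of 4 genes were called, against 2.28% of all genes, and 0 had an unadjusted p under 0.05, against 854 of all 4428 tested. Over all 17 peaks the median log2 ratio was 0.24, with 10 above 0, against a median of -0.02 and 49.11% above 0 over all peaks.

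The called eri1 peak (II:1321048-1321084) covers the end of the second intron and the first coding bases of the next exon, printed above, and also lies over the 3′ UTR of mmm1. It held 55 reads after 8 hours at 37 °C and 20 after 7 days, against 14 and 11 in spb75 at 30 °C; the library labelled dcr delta held 14 and spb80 25. Normalised, this was 67.4 reads after 8 hours against 8.50 and 10.9 in spb75 at 30 °C. The 8 hour library lay above every other library, of which the next was the 7 day library at 29.5 and then spb80 at 20.7. The log2 ratio of 8 hours over 30 °C was 2.74 (SE 0.57, limma), with an adjusted p of 0.0342 with the filter and 0.105 without it.

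The call was kept in 4 of 7 other settings, over which the adjusted p ran from 0.0227 to 0.415. In the 30 °C libraries the peak's mean signal was 18.6, below the filter's limit of 21.8, so the call with the filter depends on the values under comparison. With the 3 wild-type libraries as control the adjusted p by limma was 0.195 (log2 ratio 2.39), and under scaling by total reads 0.415 (1.67). Peak 5, which begins 2 bp further on in the same exon, held 8 reads after 8 hours against 9 and 9 at 30 °C, or 9.80 normalised reads against 5.47 and 8.88, and lay below the filter.

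**Figure D4:**
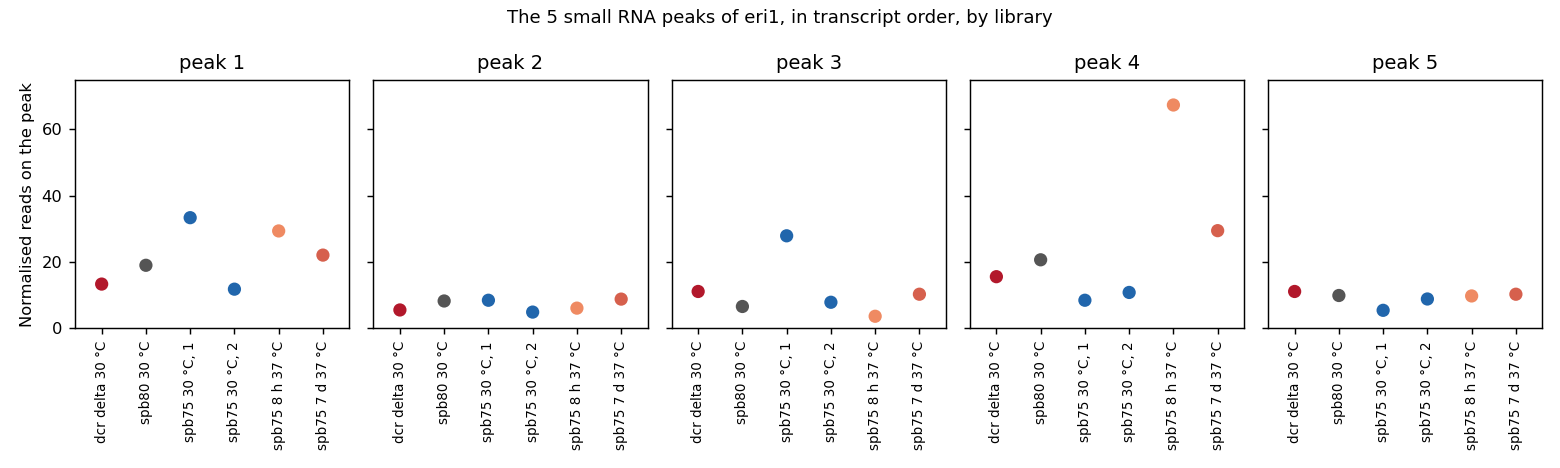
Normalised reads (vertical axis, from 0) on each of the 5 eri1 peaks, in transcript order, in each of the 6 libraries. Peak 4 stands at 67.4 in the 8 hour library and peak 5 beside it at 9.80, while the first spb75 library at 30 °C is highest at peaks 1 and 3.

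The intron peak of eri1 was the other one with an unadjusted p under 0.05 at 8 hours. It held 3 reads after 8 hours, against 46 and 8 at 30 °C, with a log2 ratio of -1.90 (SE 0.86, limma, adjusted p = 0.294). The 2 libraries at 30 °C stood further apart in reads than the lower of them and the 8 hour library, and the result did not pass. Summed eri1 stood at 116 normalised reads after 8 hours against 64.1 ± 27.9 at 30 °C (SD, n = 2), a log2 ratio of 0.92 (SE 0.49, limma, adjusted p = 0.338). On its 3 peaks that overlap no other gene, this became -0.085.

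Among RDRC genes, rdp1 summed to 71.1 normalised reads after 8 hours against 43.0 ± 10.5 at 30 °C (SD, n = 2), a log2 ratio of 0.73 (SE 0.49, limma, adjusted p = 0.446). For hrr1 the values were 111 against 105 ± 5.41, a log2 ratio of 0.072 (SE 0.40). Its peak 5, over dms1 and below the filter, held 19 reads after 8 hours against 13 and 8, or 23.3 normalised reads against 7.90 and 7.90. For cid12 the sums were 80.9 against 92.7 ± 9.94, a log2 ratio of -0.19 (SE 0.41), or -0.96 with peaks at least 50% inside the gene and 0.62 with peaks on no other gene. Its peak 1, over naa50 and below the filter, held 3 reads after 8 hours against 16 and 17. The 8 hour library was the highest of the 6 at hrr1 peak 5 and the lowest at cid12 peak 1. How many of all peaks place that library highest or lowest was not counted. Scaling by total reads moved the median of all peaks to -1.11 at 8 hours, and rdp1, hrr1 and eri1 then stood at -0.34, -1.01 and -0.16, so the directions above are relative to the other peaks.

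After 7 days at 37 °C no peak or gene of the set was called. By limma 0 of 7 peaks passed, against 0.0483% of all peaks, and 0 of 4 genes passed, against 0.858% of all genes. Of the 4 genes 0 had an unadjusted p under 0.05, against 514 of all 4428 genes tested. Of the 7 peaks 1 had such a p, against 780 of all 8274 peaks tested. That peak was eri1 peak 4, which passed the filter only through the libraries at 37 °C. It held 29.5 normalised reads after 7 days against 8.50 and 10.9 at 30 °C, a log2 ratio of 1.57 (SE 0.57). The adjusted p by limma was 0.326 with the filter and 0.470 without it. By normalised reads, cid12 peak 4 after 7 days had the highest level of any member peak in the 6 libraries. By the signal corrected for peak width it stood at 83.0, under the 129 of eri1 peak 4 after 8 hours. Peak 4 of cid12 held 67.8 normalised reads after 7 days against 26.7 and 37.5 at 30 °C. Its log2 ratio was 1.08 (SE 0.55, limma, adjusted p = 0.569).

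On summed reads after 7 days, rdp1 had a log2 ratio of 0.64 (SE 0.49), cid12 of 0.40 (SE 0.41), eri1 of 0.40 (SE 0.49) and hrr1 of -0.40 (SE 0.40). None passed. For cid12 the ratio was -0.15 with peaks at least 50% inside the gene and 1.06 with peaks on no other gene. Over all 17 peaks the median was 0.42, with 11 above 0, against a median of 0.03 and 51.75% above 0 over all peaks. The comparisons after 8 hours and 7 days share their 30 °C libraries.

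Set directly against each other, the libraries after 7 days and after 8 hours had no member called as different. By limma 0 of 7 peaks and 0 of 4 genes were called, against 0.302% of all peaks and 0.0678% of all genes. In either, 0 had an unadjusted p under 0.05, against 874 of all 8274 peaks and 458 of all 4428 genes tested. At eri1 peak 4 the 7 day library held 29.5 and the 8 hour library 67.4 normalised reads, a log2 ratio of -1.18 (SE 0.66, limma, adjusted p = 0.552). With an interval of -2.56 to 0.21, the 2 time points are not shown to differ at this peak. Cid12 peak 1, which the filter left out, held 14 reads after 7 days and 3 after 8 hours.

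The other genes of RNAi and heterochromatin were described on summed reads from a list of 19: the Dicer gene and its partners, the subunits of the histone methyltransferase complex, the heterochromatin proteins and the histone deacetylase complexes. Of these, 14 held a peak and 8 passed the filter. In the library labelled dcr delta 1 of 8 rose, dcr1 itself, and 0 fell, against 0.271% of all genes called higher. It held 274 normalised reads against a mean of 56.4 in wild type, a log2 ratio of 2.28 (SE 0.38, limma, adjusted p = 0.0387), and the call was kept in 9 of 11 other settings. It was lost on peaks over the coding span (log2 ratio 2.05, limma, adjusted p = 0.176) and on peaks that overlap no other gene (1.70, adjusted p = 0.725).

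After 8 hours 1 of 8 rose, swi6, which encodes the HP1 protein of this yeast, and 0 fell, against 2.01% of all genes called higher. It held 256 normalised reads against a mean of 56.0 at 30 °C, a log2 ratio of 2.21 (SE 0.46, limma, adjusted p = 0.0415). The call was kept in 3 of 9 other settings, over which the adjusted p ran from 0.0122 to 0.411. In the 6 that lost it, the log2 ratio was 1.12 with total reads and 2.21 to 3.73 in the others. After 7 days swi6 held 48.7 normalised reads. For 7 days over 8 hours 0 of 8 were called, and 1 of 8, swi6, had an unadjusted p under 0.05 by limma. Of all 4428 genes tested, 458 had such a p there. After 7 days 0 of 8 were called by limma, with 1 at an unadjusted p under 0.05, dcr1, against 514 of all 4428 genes tested. The list's median log2 ratio was 0.31 in the library labelled dcr delta, 0.37 after 8 hours and 0.14 after 7 days, against 0.02, 0.13 and 0.06 over all genes.

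By mean summed level over the 6 libraries, cid12 was the highest of the members, at 97.9 normalised reads. Of 5456 other genes, those whose log2 levels followed it most closely over the 6 libraries were mug117 (Pearson's r = 0.984), SPCC4F11.03C (0.977) and vps68 (0.962). None of them shares a peak with cid12. With 6 libraries that share their scale factors, and this many genes, these values are a description only.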

How the data were processed

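The submitters' processing notes list CASAVA 1.8, Bowtie 0.9.9.1 and MACS without a version, and do not say which did what; no source used here names a genome build. The authors deposited 1 peak list with a signal value per library. From its values, the deposited signal is reads times the mean peak width (71.0 bp) over the peak's width, plus 8 in the spb80 and dcr delta columns, with 1.48 per read in the dcr delta column. These terms were removed. Between 73.8 and 92.4% of values then lay within 0.01 of a whole read, so no count test was used. Peaks were placed on RefSeq ASM294v3. Libraries were scaled by trimmed-mean (TMM) factors (30% of log ratios and 5% of levels trimmed). Limma 3.58.1 in R 4.3.3 was run with a prior trend, 2-sided, on log2(normalised signal + 1), or on reads summed per gene, where a peak counts for each gene it overlaps. The 25% lowest were dropped and p-values adjusted by Benjamini-Hochberg over 8274 peaks or 4428 genes. The dcr delta fit has 2 residual degrees of freedom and the fit of the 4 spb75 libraries 1; single libraries are assumed to vary like the others. Intervals and limits at 0 reads (3 reads) cover counting error only, since PCR reads carry no molecular identifiers. Peaks given in every library are those called and the highest of each gene; others were added after their values were seen. Other scalings, pseudocounts, filters, overlaps, controls and left-out libraries were tried. The genes, lists and tests were chosen with earlier results of these data known.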

Additional observations from a re-analysis of the deposited data

How the results depend on the processing

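No member peak or gene was called in the library labelled dcr delta, after 7 days, or between 7 days and 8 hours under any setting run. At 8 hours the count of 1 called peak became 0 with total-read scaling, without the filter, with 3 wild-type controls and with only peaks on no other gene, a setting chosen after seeing the data. Of 186 values of 20 named ratios under other settings, 18 reversed, on 12 of the ratios, none of which was called. With total reads the ratios at 8 hours became -0.34 (rdp1), -1.01 (hrr1) and -0.16 (eri1), at 7 days -0.082 (cid12) and -0.076 (eri1), and for 7 days over 8 hours 0.50 (rdp1), 0.13 (hrr1) and 0.088 (eri1). With peaks at least 50% inside the gene, cid12 became -0.16 in dcr delta and -0.15 at 7 days. With only peaks on no other gene, hrr1 became -0.33, cid12 0.62 and eri1 -0.085 at 8 hours, eri1 -0.012 at 7 days and 0.073 for 7 days over 8 hours. Leaving out 1 wild-type library, hrr1 in dcr delta ranged from -0.13 to 0.25, eri1 in dcr delta from -0.37 to 0.084 and eri1 at 7 days from -0.047 to 0.85. Without either 30 °C library, eri1 peak 4 at 8 hours stood at 2.58 and 2.91, as values with no test because no residual degrees of freedom remain. The cause was not tested beyond which peaks or libraries enter. Calls over all features ranged, for genes, from 3 to 121 in dcr delta (82 as reported), 0 to 232 at 8 hours (101), 0 to 94 at 7 days (38) and 0 to 59 between the times (3), and for peaks from 1 to 140 at 8 hours (102), 0 to 4 at 7 days (4) and 0 to 31 between the times (25). No paired analysis was possible because the groups compared share fewer than 2 replicate numbers. Low reads limit every member: no member peak held more than 77 reads in a library.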
